A study of Mus musculus with 18 samples.

Results

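The 37 aminoacyl-tRNA synthetase genes of the mouse liver were examined here: 20 genes for cytosolic enzymes and 17 for mitochondrial enzymes. They were chosen by gene name and biotype, as protein-coding genes named for an amino acid letter followed by ars, with Eprs, Farsa, Farsb and Fars2, and those with a name ending in 2 were taken as mitochondrial. All 37 were found in both deposited tables, each of which lists 54532 genes, and all 37 passed the filter of a mean of at least 0.5 FPKM (fragments per kilobase of transcript, scaled to library size).

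Aminoacyl-tRNA synthetases join each amino acid to its tRNA, the step that fixes which amino acid a codon calls for. The cytosol and the mitochondrion each have a set, all encoded in the nucleus, and most amino acids have 1 gene for each compartment. Gars and Kars encode both forms of their enzymes, Eprs encodes 1 protein that charges 2 amino acids, and mitochondrial glutaminyl-tRNA is made by another route, so no gene for a mitochondrial enzyme matched for glycine, lysine or glutamine. Several cytosolic enzymes sit in a multisynthetase complex, and many cytosolic synthetase genes are known targets of ATF4, the transcription factor of the integrated stress response, which slows general translation when cells lack charged tRNA or meet other stress.

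Liver RNA came from fasted wild-type male C57BL/6J mice that started the diets at about 1 month of age. Ctrl mice (n = 5) had control diet and B2D mice (n = 5) a diet deficient in vitamin B2 (riboflavin, the precursor of the flavin cofactors) for 1 month. Ctrl+FF (n = 4) and B2D+FF (n = 4) mice had the same diets for 9 weeks, with fenofibrate, an agonist of the nuclear receptor PPARα, in weeks 7 to 9 and again 2 hours before harvest. The fenofibrate groups thus differ from the others in time on diet as well as in drug, and the tables of the 2 experiments were scaled apart, so diet was tested within each table and levels between tables are given side by side only.

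The libraries held 15320729 to 21898502 reads on genes. The lowest Pearson correlation between any pair of mice of 1 group, over log2 values, was 0.958, in B2D. Hepatocyte markers summed to 32410 to 41731 FPKM in Ctrl and 32731 to 47022 in B2D, and all 8 were detected in every group, as fits the liver label. Markers of other cells were low beside them. In bulk liver, fewer cells of a type and less RNA per cell cannot be told apart.

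Promoter sequence is shown first for the 2 genes with a higher level in B2D+FF for which RefSeq gave a window, Gars and Sars. The windows run from 250 bases before the start of transcription to its first 50 bases, in GRCm38.p6, and 27 of the 37 genes had one. Below are the 250 bases before the start, with capitals at matches to 2 motifs: the core shared by ATF4 and C/EBP proteins, TGATGNAA, and the core bound by ETS factors, CCGGAAG, each on either strand.

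Gars, chr6:55037751-55038000, plus strand: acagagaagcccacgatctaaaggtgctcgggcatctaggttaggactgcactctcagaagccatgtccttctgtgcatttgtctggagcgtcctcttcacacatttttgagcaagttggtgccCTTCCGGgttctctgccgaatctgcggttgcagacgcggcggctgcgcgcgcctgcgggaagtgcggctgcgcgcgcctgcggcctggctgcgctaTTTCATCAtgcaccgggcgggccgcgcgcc
Sars, chr3:108445260-108445509, minus strand: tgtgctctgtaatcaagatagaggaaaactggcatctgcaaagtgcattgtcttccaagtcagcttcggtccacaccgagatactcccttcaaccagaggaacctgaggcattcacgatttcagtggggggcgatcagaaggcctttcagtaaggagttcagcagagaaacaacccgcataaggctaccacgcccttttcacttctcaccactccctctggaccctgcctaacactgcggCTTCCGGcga

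The Gars window held both motifs, the ATF4 and C/EBP core beginning at -30 and the ETS core at -126, counted from the start. The Sars window held the ETS core at -10 and no match to TGATGNAA. Over all 32851 windows, TGATGNAA was found in 3.97% and CCGGAAG in 8.86%. Among the 27 synthetase genes with a window, TGATGNAA was found in 5, all among the 13 cytosolic ones, with Gars, Iars, Tars and Yars among them. CCGGAAG was found in 9, of which Gars, Sars, Mars, Farsa and Kars are cytosolic and Cars2, Mars2, Rars2 and Sars2 are mitochondrial. The E-box CACGTG was found in 5 of the 27 (7.15% of all windows), and the core of the NRF1 motif in 5 (4.6% of all windows). All 4 motifs were searched on both strands, and in these genes no match of 1 motif overlapped a match of another. A match is a run of letters in this window, not a site shown to be bound.

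Of the genes with the ATF4 and C/EBP core, 4 are set side by side below, with the first match in capitals and 10 bases on each side, to show the letters behind the count.

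Gars: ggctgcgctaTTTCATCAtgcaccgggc
Iars: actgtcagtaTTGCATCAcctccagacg
Tars: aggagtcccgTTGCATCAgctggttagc
Yars: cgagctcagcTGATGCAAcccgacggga

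In B2D+FF against Ctrl+FF, the fitted log2 fold changes of these 4 genes were 0.57 for Gars, 0.31 for Iars, 0.05 for Yars and -0.13 for Tars. Of the 4, Gars alone passed the test, at an adjusted p of 0.0201, and Tars, with the same 8 capitals as Iars, had an interval from -0.34 to 0.09.

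Synthetase mRNAs differed widely in level. In Ctrl, cytosolic members ran from 1.8 FPKM for Cars (cysteinyl) and 3.76 for Farsa (the alpha subunit of the phenylalanyl enzyme) to 21.7 for Dars (aspartyl) and 25.6 for Nars (asparaginyl), with a median over the 20 members of 8.2. Mitochondrial members had a median of 2.68 FPKM, and ran from 0.567 for Mars2 and 0.827 for Wars2 to 7.72 for Iars2 and 42.5 for Lars2. Lars2, the mitochondrial leucyl enzyme, was thus the highest of all 37 in Ctrl, in a compartment where the next member was at 7.72. Cars and Mars2 were the lowest of their compartments in all 4 groups, Nars and Dars the highest of the cytosolic set, and Lars2 and Iars2 the highest of the mitochondrial set. In B2D+FF, Nars was at 24.5, Dars at 21.4, Lars2 at 20.4 and Iars2 at 11.4 FPKM. Of 18 cytosolic and mitochondrial pairs for 1 amino acid, 14 had the higher FPKM in the cytosolic gene in Ctrl.

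**Figure D1:**
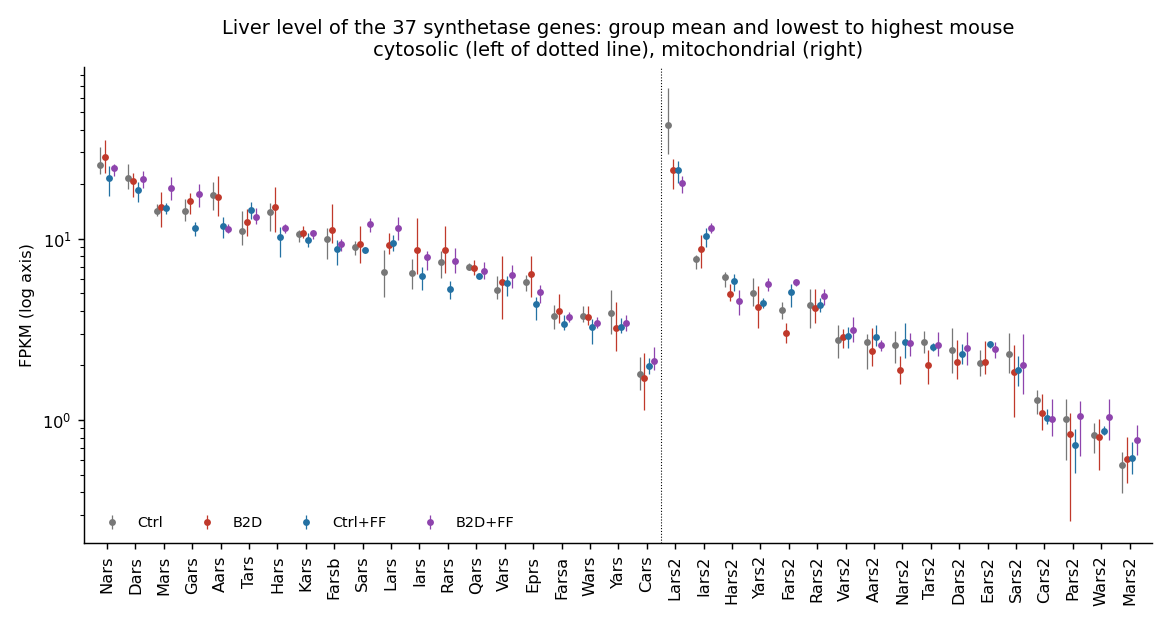
Mean FPKM (log axis) of each of the 37 genes in the 4 groups, with bars from the lowest to the highest mouse of the group. Lars2 in Ctrl spans 29.5 to 67.6 FPKM, and Pars2 in B2D reaches down to 0.276.

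The lowest count of any member in any mouse was 15 reads, for Pars2 (prolyl) in B2D. The coefficient of variation over mice had a median of 12.7% in Ctrl, 19.2% in B2D, 10% in Ctrl+FF and 8.97% in B2D+FF for cytosolic members. It reached 31.1% for Iars in B2D among cytosolic members, and 36.5% for Lars2 in Ctrl and 40.5% for Pars2 in B2D among mitochondrial ones.

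The question of the first comparison is what 1 month without dietary B2 does to these genes. None of the 37 members passed the test in B2D against Ctrl, where 2.7% of the 11574 genes tested did (1.94% lower and 0.769% higher), by limma on log2(FPKM + 1) with an adjusted p under 0.05. At an unadjusted p under 0.05, 5 mitochondrial members were lower (Lars2, Fars2, Hars2, Tars2 and Nars2) and 1 cytosolic member, Lars, was higher; over all genes tested, 10.1% were lower and 8.24% higher at that level. In direction, 14 of 20 cytosolic members had a fitted fold change above 0, with a median of 0.065, and 4 of 17 mitochondrial members did, with a median of -0.14. Of all genes tested, 49.8% were above 0. At a mean of at least 5 FPKM, 42.1% of genes were above 0, with 13 of 16 cytosolic and 1 of 3 mitochondrial members. Without B2D 1 or without B2D 3, 11 of 20 cytosolic members were above 0, with medians of 0.008 and 0.01, and 4 of 17 mitochondrial members were in both cases.

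Groups did not overlap for 2 members, Lars2 and Fars2, both lower in B2D, and neither passed the test in the main fit. Among all members, counted in either direction, that share is close to the background of 4.98% of all genes tested. By direction, 2.89% of all genes tested did not overlap and were lower, and 2.08% were higher, where the 2 members were both lower. Lars2, the mitochondrial leucyl enzyme, lies on chr9:123366927-123462666 in GRCm38. It was at 29.5, 46.9, 34.2, 34.0 and 67.6 FPKM in the 5 Ctrl mice and at 27.5, 18.9, 26.9, 23.8 and 23.0 in the 5 B2D mice. Every Ctrl mouse was above every B2D mouse, by a narrow step between 29.5 and 27.5, and Ctrl 5 stood well above the other Ctrl mice. The mean fell from 42.5 ± 15.5 (SD, n = 5) to 24.0 ± 3.48 (SD, n = 5), and the fitted log2 fold change was -0.74 (SE 0.202, 95% interval -1.18 to -0.3) with an adjusted p of 0.0781 by limma. The call depended on the fit: Lars2 passed with a filter at a mean of 5 FPKM (adjusted p 0.0479), with upper-quartile rescaling (0.0429), with voom on the recovered reads (0.0427) and with all 18 libraries in 1 fit (0.0164). With any 1 library left out it did not pass. The mitochondrial rRNA mt-Rnr1 ranged from 244 to 662 FPKM in Ctrl, with Ctrl 5 the highest, and from 287 to 376 in B2D, while mt-Rnr2 ranged from 199 to 665 in Ctrl, with Ctrl 4 the highest, and from 221 to 379 in B2D. In the fenofibrate groups, Lars2 was at means of 23.8 in Ctrl+FF and 20.4 in B2D+FF. There mt-Rnr1 was at 432 to 628 FPKM in Ctrl+FF and 495 to 734 in B2D+FF, and mt-Rnr2 at 343 to 530 and 239 to 492. The part of these rRNAs in the Lars2 values was not tested.

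Fars2, the mitochondrial phenylalanyl enzyme, lies on chr13:36117412-36726280. It was at 3.96, 4.43, 3.59, 4.5 and 3.71 FPKM in Ctrl and at 3.15, 2.91, 2.65, 3.45 and 3.06 in B2D. All 5 B2D mice were below all 5 Ctrl mice. The means were 4.04 ± 0.413 and 3.04 ± 0.297 (SD, n = 5 each). The fitted log2 fold change was -0.32 (SE 0.0895, adjusted p 0.0885 by limma), and with all 18 libraries in 1 fit the adjusted p was 0.0282.

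Lars, the cytosolic leucyl enzyme and a member of the multisynthetase complex, had the highest fitted fold change of the 37 in this comparison, 0.46 (SE 0.139, adjusted p 0.109 by limma). It was at 5.8, 6.04, 7.32, 4.77 and 8.66 FPKM in Ctrl and at 10.2, 8.55, 10.8, 8.32 and 8.28 in B2D. Only Ctrl 5 lay within the range of the B2D mice, and without that library Lars passed the test. The ratio of Lars to Lars2 FPKM within a mouse was 0.128 to 0.214 in Ctrl and 0.35 to 0.453 in B2D, with no overlap, and 0.344 to 0.475 in Ctrl+FF and 0.52 to 0.609 in B2D+FF. This pair had the widest gap between cytosolic and mitochondrial fold changes, 1.2 on the log2 scale.

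The same order, with the cytosolic fold change above the mitochondrial one, held in 17 of the 18 pairs in B2D against Ctrl, with a median gap of 0.21. The exception was the tyrosyl pair, Yars at -0.23 and Yars2 at -0.22. Some of the 17 gaps were far smaller than the errors of the fits. Wars was at -0.02 (SE 0.0848) and Wars2 at -0.03 (SE 0.104), and the gap was 0.01 for the methionyl pair and 0.03 for the valyl pair. Nars and Nars2 (asparaginyl) were at 0.13 and -0.31, Tars and Tars2 (threonyl) at 0.16 and -0.29, and Hars and Hars2 (histidyl) at 0.06 and -0.27. The pairs are not independent, since Eprs and Fars2 each enter 2 of them and Hars and Hars2 overlap at their starts.

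The mean log2(FPKM + 1) of the 20 cytosolic members less that of the 17 mitochondrial ones was 1.17, 1.13, 1.22, 1.07 and 1.26 in the 5 Ctrl mice. In the B2D mice it was 1.52, 1.27, 1.64, 1.36 and 1.27. All B2D mice were above all Ctrl mice, although B2D 2 and B2D 5 exceeded Ctrl 5 by only about 0.01. The group means were 1.17 ± 0.0775 and 1.41 ± 0.161 (SD, n = 5 each), a difference of 0.24, given as a description with no test. The mitochondrial mean was 1.99 to 2.11 in Ctrl and 1.84 to 1.96 in B2D, with no overlap, whereas the cytosolic mean was 3.08 to 3.35 and 3.11 to 3.51, with overlap. B2D 1 and B2D 3 carried the high end: in one or the other of them 19 of the 20 cytosolic members had their highest B2D value (9 in B2D 1 and 10 in B2D 3).

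**Figure D2:**
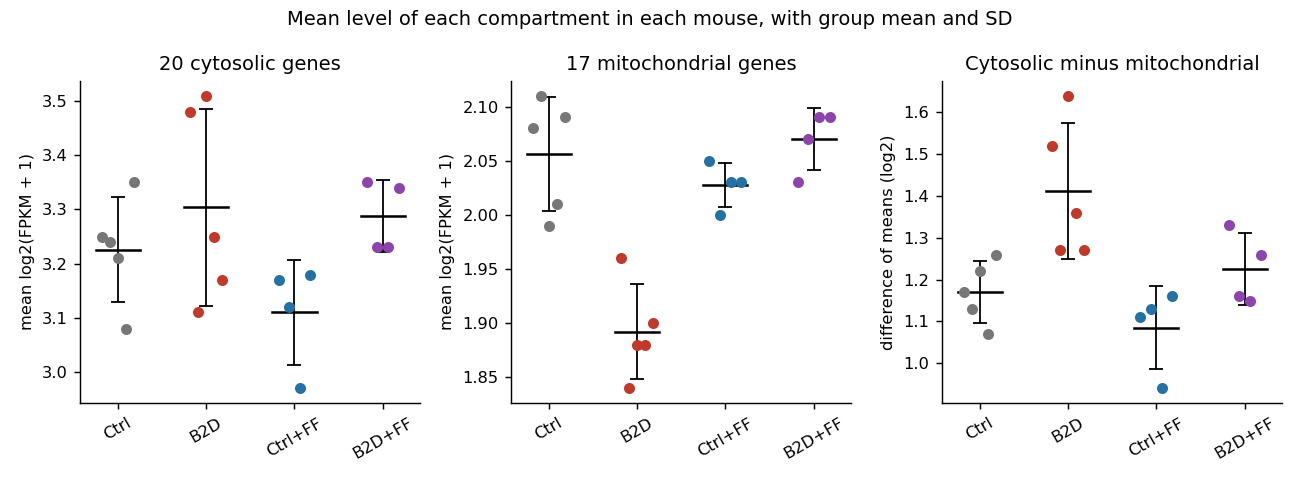
Mean log2(FPKM + 1) over the 20 cytosolic genes, over the 17 mitochondrial genes, and their difference, in each mouse, with group mean and SD. The difference is 1.07 to 1.26 in Ctrl and 1.27 to 1.64 in B2D, and 0.94 to 1.16 in Ctrl+FF and 1.15 to 1.33 in B2D+FF.

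The second comparison asks the same of 9 weeks on the diets with fenofibrate. In B2D+FF against Ctrl+FF, 3 of the 37 members passed the test, all higher and all counted here as cytosolic: Gars, Sars and Rars. Of these, Gars also encodes the mitochondrial form. Of the 11878 genes tested, 4.45% passed in either direction, 2.21% lower and 2.24% higher. At an unadjusted p under 0.05, 7 members were higher (the 3 called, Mars, Iars, Lars and Yars2) and 1, Hars2, was lower, against 11.3% and 9.93% of all genes tested. By direction, 18 of 20 cytosolic members had a fitted fold change above 0 (median 0.15) and 11 of 17 mitochondrial members did (median 0.07), against 52.8% of all genes tested. Without Ctrl+FF 3 the counts were 16 of 20 (median 0.075) and 11 of 17 (median 0.035). Among genes at a mean of at least 5 FPKM, 60.3% were above 0, as were 13 of 15 cytosolic and 3 of 5 mitochondrial members. With upper-quartile rescaling, 43.4% of all genes were above 0, with 18 of 20 cytosolic (median 0.094) and 10 of 17 mitochondrial members. Groups did not overlap for 5 of the 37, all higher: Gars, Sars, Rars, Mars and Yars2. Counted in either direction, that share is close to the background of 14.3% of all genes tested. By direction, 7.82% of all genes tested did not overlap and were higher, and 6.44% were lower, where the 5 members were all higher.

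Gars, the glycyl enzyme of both compartments, lies on chr6:55038007-55079500. It was at 12.4, 10.3, 11.0 and 12.3 FPKM in Ctrl+FF and at 20.1, 16.8, 15.0 and 18.6 in B2D+FF. The lowest B2D+FF mouse stood above the highest Ctrl+FF mouse, on 971 to 1188 against 528 to 652 reads. The mean rose from 11.5 ± 1.03 to 17.6 ± 2.2 (SD, n = 4 each), a ratio of 1.53, and the fitted log2 fold change was 0.57 (SE 0.106), with an adjusted p of 0.0201 by limma.

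Sars, the cytosolic seryl enzyme, lies on chr3:108424865-108445209. Its values were 8.89, 8.63, 8.35 and 8.74 FPKM in Ctrl+FF and 13.0, 12.8, 10.9 and 11.5 in B2D+FF. No mouse of one group reached the other. The mean rose from 8.65 ± 0.23 to 12 ± 1.02 (SD, n = 4 each), a ratio of 1.39, and the fitted log2 fold change was 0.43 (SE 0.0789), with an adjusted p of 0.0191 by limma.

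Rars, the cytosolic arginyl enzyme and a member of the multisynthetase complex, lies on chr11:35808381-35834506. It was at 5.57, 5.2, 4.63 and 5.85 FPKM in Ctrl+FF and at 8.86, 7.75, 6.45 and 7.27 in B2D+FF. The groups did not overlap, though B2D+FF 3 was within 1 FPKM of the highest control. The means were 5.31 ± 0.525 and 7.58 ± 1.0 (SD, n = 4 each), a ratio of 1.43, and the fitted log2 fold change was 0.44 (SE 0.103), with an adjusted p of 0.0465 by limma. Rars did not pass in 11 of its 16 alternatives: with no filter on low values (adjusted p 0.0991), upper-quartile rescaling (0.0524), quantile normalization (0.051), all 18 libraries in 1 fit (0.0883), and in 7 of the 8 fits with 1 library left out (0.0574 to 0.13).

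With Ctrl+FF 1, Ctrl+FF 2 or Ctrl+FF 3 left out, 0 of the 37 passed. Calls over all genes also fell in these smaller fits, from 263 lower and 266 higher to 93 and 82, 112 and 76, and 130 and 112. With B2D+FF 4 left out only Sars passed, where 158 genes were called lower and 140 higher. Sars passed in 5 of the 8 fits with 1 library left out, and Gars in 4. The fold changes themselves moved little, from 0.51 to 0.64 for Gars, 0.37 to 0.47 for Sars and 0.37 to 0.51 for Rars over all alternatives. The lowest value of 16 of the 20 cytosolic members in Ctrl+FF was in Ctrl+FF 3.

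Mars, the cytosolic methionyl enzyme, and Yars2, the mitochondrial tyrosyl enzyme, had groups apart without passing the test. Mars was at 15.1, 13.7, 14.1 and 15.7 FPKM in Ctrl+FF and at 19.9, 16.4, 18.3 and 21.8 in B2D+FF (log2 fold change 0.36, adjusted p 0.0769 by limma). Yars2 was at 4.59, 4.17, 4.15 and 4.74 FPKM in Ctrl+FF and at 5.61, 6.06, 5.14 and 5.62 in B2D+FF (log2 fold change 0.29, adjusted p 0.0645 by limma). With weights for library quality both passed, at 0.0303 and 0.043.

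**Figure D3:**
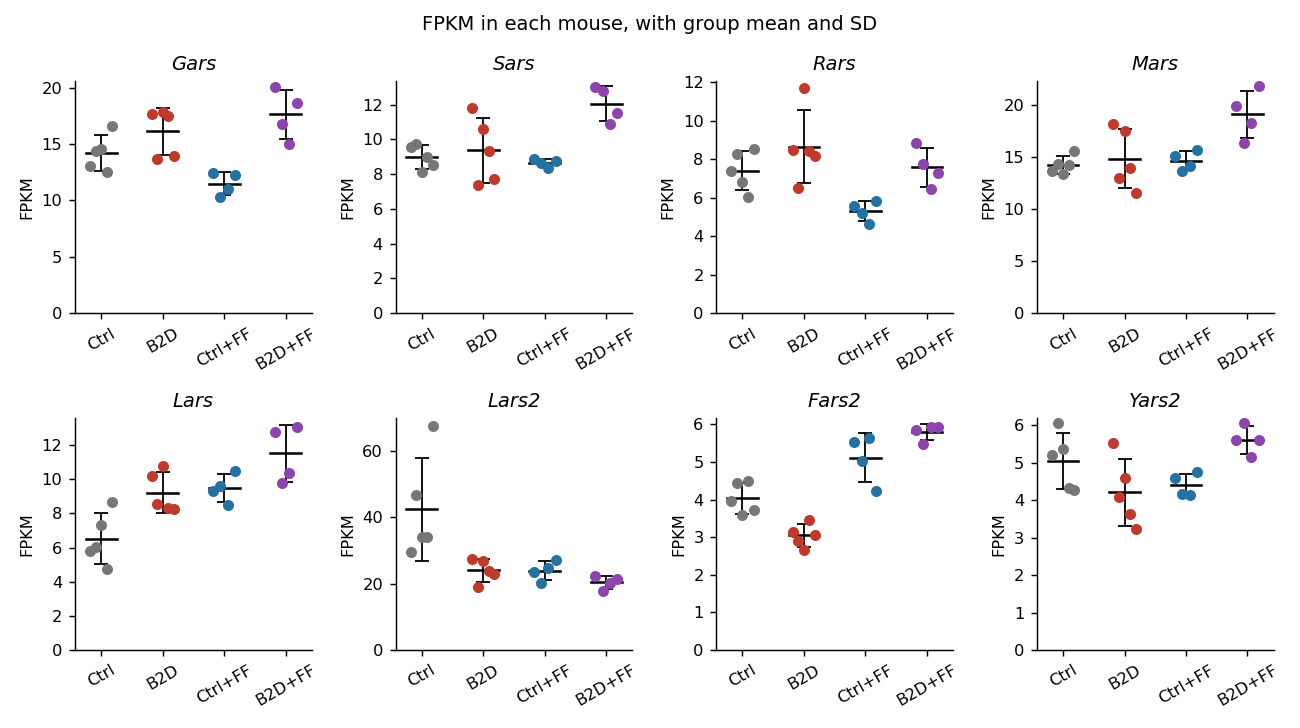
FPKM of 8 members in each mouse of the 4 groups, with group mean and SD. Gars, Sars, Rars, Mars and Yars2 have B2D+FF mice above all Ctrl+FF mice, and Lars2 and Fars2 have B2D mice below all Ctrl mice.

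Most other members showed small values with fenofibrate. Sars2, the mitochondrial partner of Sars, was at 0.04 and Rars2 at 0.13, against 0.43 and 0.44 for their cytosolic partners. Hars2 was on the lower side in both comparisons, at -0.27 (adjusted p 0.135) and -0.31 (adjusted p 0.138) by limma. Aars, Tars, Aars2, Cars2, Ears2, Nars2, Lars2 and Hars2 were the 8 members with fitted values below 0, and the other 29 were above. In 12 of the 18 pairs the cytosolic fold change was above the mitochondrial one, with a median gap of 0.1.

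The cytosolic less mitochondrial mean was 1.11, 1.13, 0.94 and 1.16 in Ctrl+FF and 1.33, 1.16, 1.15 and 1.26 in B2D+FF. The groups overlapped here, since B2D+FF 3 lay below Ctrl+FF 4. The means were 1.08 ± 0.0987 and 1.22 ± 0.0858 (SD, n = 4 each), a difference of 0.14. Without Ctrl+FF 3 the difference was 0.09, and without Gars and Kars, which encode both forms, it was 0.12. Here the cytosolic mean was apart between groups, 2.97 to 3.18 in Ctrl+FF and 3.23 to 3.35 in B2D+FF, and the mitochondrial mean was not, 2.0 to 2.05 and 2.03 to 2.09.

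**Figure D4:**
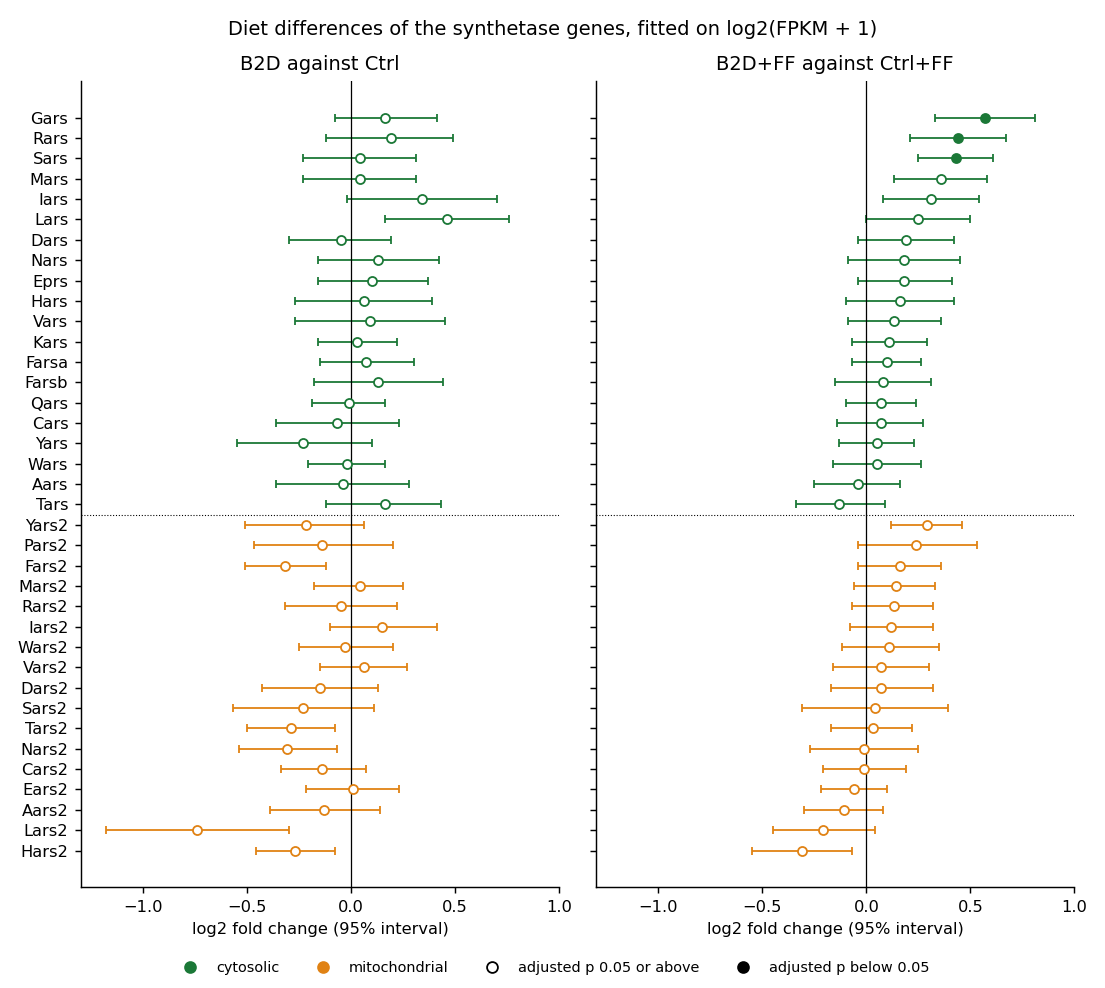
Log2 fold change with 95% interval of each of the 37 genes in B2D against Ctrl (left) and B2D+FF against Ctrl+FF (right), cytosolic above the dotted line and mitochondrial below, with filled points where the adjusted p was under 0.05. Filled points are Gars, Rars and Sars on the right, and no point is filled on the left.

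Whether the diet effect differed with fenofibrate was tested in 1 fit over all 18 libraries. None of the 37 members passed, where 0.228% of the 11862 genes tested did (0.101% lower and 0.126% higher). The fitted difference was above 0 for 15 of 20 cytosolic and 14 of 17 mitochondrial members, and for 52.4% of all genes tested. Among genes at a mean of at least 5 FPKM it was above 0 for 65.6%, and for 11 of 16 cytosolic and 1 of 3 mitochondrial members. At an unadjusted p under 0.05, 5 members had a higher diet effect with fenofibrate and none a lower one: Fars2 (0.48, SE 0.122, adjusted p 0.113 by limma), Yars2 (0.51, adjusted p 0.199), Gars (0.41), Sars (0.39) and Tars2 (0.31). Over all genes, 6.69% were higher and 5.21% lower at that level. Gars and Sars thus passed with fenofibrate and not without it, at 0.57 and 0.43 against 0.16 and 0.04, but the difference itself did not pass. The 2 experiments also differ in time on diet, so drug and time cannot be told apart.

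Within the synthetases, subgroups, also chosen with earlier results known, were counted beside the 52.8% of all genes above 0 and the 2.24% called higher with fenofibrate. Of genes at a mean of at least 5 FPKM, 60.3% were above 0 with fenofibrate. All 8 enzymes of the multisynthetase complex (Dars, Eprs, Iars, Kars, Lars, Mars, Qars and Rars) had fitted values above 0 with fenofibrate, with a median of 0.22, and 1, Rars, passed; without fenofibrate 6 of 8 were above 0, with a median of 0.07. Of 13 cytosolic genes often listed as ATF4 targets, 11 were above 0 with fenofibrate (median 0.18) and 2, Gars and Sars, passed. Of 7 seldom listed as such, all 7 were above 0 (median 0.11) and 1, Rars, passed. Among class I enzymes, which share a Rossmann fold, 15 of 18 were above 0 with fenofibrate, and among class II enzymes 13 of 18; Eprs, which holds both kinds of catalytic domain, was counted in neither.

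Genes around the synthetases gave the setting. With fenofibrate, 52.8% of all genes tested were above 0, and 60.3% of those at a mean of at least 5 FPKM. None of the 17 measured partners and tRNA charging factors (such as the scaffold proteins Aimp1 and Aimp2) passed in either comparison, with medians of -0.03 without and 0.02 with fenofibrate; at an unadjusted p under 0.05, 3 were lower without fenofibrate, and 2 were lower and 2 higher with it. Of 27 cytosolic translation factors, 24 had fitted values above 0 with fenofibrate (median 0.18), and 1 passed: Eif4a1, the RNA helicase of translation initiation, rose from 50.2 ± 1.5 to 66.9 ± 6.3 FPKM (SD, n = 4 each; adjusted p 0.042 by limma). Of 15 measured mitochondrial translation factors, 11 were below 0 without fenofibrate (median -0.12) and 1 passed: Mrrf, the ribosome recycling factor, fell from 4.5 ± 0.297 to 3.26 ± 0.234 FPKM (SD, n = 5 each; adjusted p 0.0341 by limma). With fenofibrate their median was 0.12 and none passed, with 2 higher at an unadjusted p under 0.05.

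Atf4 mRNA itself was at 19.9 to 29.2 FPKM in Ctrl+FF and 27.1 to 39.3 in B2D+FF, with overlap (log2 fold change 0.49, SE 0.147, adjusted p 0.0935 by limma). Without fenofibrate it was at 24.4 to 31.9 in Ctrl and 25.4 to 33.8 in B2D (0.08, adjusted p 0.743). With fenofibrate, 2.24% of all genes tested were called higher and 52.8% were above 0. Of 27 measured ATF4 target genes that are not synthetases, 7 passed with fenofibrate, all higher, and 26 were above 0, with a median of 0.55. The 4 with the smallest adjusted p were Fgf21, the fasting hormone (2.49, adjusted p 0.0137 by limma), Psat1 of serine synthesis (0.78, 0.0156), Trib3, a pseudokinase that restrains ATF4 (0.91, 0.0164), and Jdp2, a bZIP repressor (0.5, 0.0228). Psat1 and Jdp2 were low genes, with Ctrl+FF means of 0.264 and 0.359, under the filter level of 0.5 FPKM. Their B2D+FF means were 1.19 and 0.925, so both reached the filter only through the group where they were higher. Without fenofibrate 2 of 26 passed, Atf5 (0.63, adjusted p 0.0378 by limma) and Sesn2 (0.49, 0.048), and the median was 0.22. There, 20 of the 26 were above 0, and 0.769% of all genes tested were called higher and 49.8% were above 0. Psat1 was not tested without fenofibrate, at means of 0.177 FPKM in Ctrl and 0.224 in B2D. The regulators of the eIF2alpha branch, 9 measured, held no gene that passed in either comparison, with 1 higher without fenofibrate and 2 higher with it at an unadjusted p under 0.05.

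Markers of other cells moved in part. Of 10 Kupffer cell and macrophage markers, 9 were below 0 without fenofibrate and 2 fell, C1qa (-0.5, adjusted p 0.0275 by limma) and Clec4f (-0.47, 0.0412). At an unadjusted p under 0.05, 4 were lower, and the 1 marker above 0 was higher, at 0.95. The summed level of the 10 markers was 113 to 135 FPKM in Ctrl and 87.4 to 115 in B2D. With fenofibrate none of them passed, with 2 lower at an unadjusted p under 0.05, and the sums were 90.1 to 148 and 60.5 to 159. Of 7 endothelial markers, Lyve1 rose with fenofibrate (0.77, adjusted p 0.0294 by limma), while the other 6 were below 0, 1 of them at an unadjusted p under 0.05, and the median was -0.16. Of 8 hepatocyte markers, Tat, the tyrosine aminotransferase that fasting hormones raise, rose with fenofibrate (1.35, adjusted p 0.0188 by limma). At an unadjusted p under 0.05, 3 of the 8, with Tat among them, were higher and 2 were lower. The hepatocyte sums were 21418 to 24679 in Ctrl+FF and 19124 to 21993 in B2D+FF. No stellate, cholangiocyte, lymphocyte or neutrophil marker passed in either comparison; at an unadjusted p under 0.05, 3 were lower and 2 higher over both. The part of cell makeup in the synthetase values was not tested.

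Some members share sequence with other genes, which limits the reads that can be given to them. Iars2 shares 2034 bases with Rab3gap2 beside it (1.36 to 1.57 FPKM as group means), Aars 1326 bases with Exosc6, which was listed at 0 in all groups, and Cars2 217 bases with Naxd (10.1 to 15.6 FPKM). Iars has a pseudogene copy, Gm4849, 96% identical over 1656 bases and at 0.0131 FPKM or less. Gars, Sars, Rars, Lars2 and Fars2 had no stretch of at least 200 bases shared at 95% identity or more with transcripts of other genes. Shorter or less alike stretches, with any between Lars2 and the mitochondrial rRNAs among them, were not counted.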

How the data were processed

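Liver mRNA libraries of 18 mice were sequenced. Per the labels, the authors used STAR, featureCounts, DESeq2 and the mm10 genome (versions not given in the sources used here), and deposited FPKM values, 1 table per experiment. The authors divided the reads by gene length and a library size equal to the median-of-ratios size factor, so each table has its own scale. Whole reads were recovered for 100% of the values checked, within 0.05 reads or, at high counts, within a tolerance that grew with the count. These reads served for depth and for an alternative with voom, which called 264 genes lower and 139 higher without fenofibrate and 377 and 365 with it.

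Genes with a mean of at least 0.5 FPKM went into limma 3.58.1 (R 4.3.3, empirical Bayes with an intensity trend) as log2(FPKM + 1), and p-values were adjusted by Benjamini-Hochberg over all of them. Fold changes are on that scale, which understates those of low genes. The 5 against 5 and 4 against 4 mice were fitted apart, and the difference between the 2 diet effects in 1 fit of 18 libraries with 4 group means. The labels name the mice by separate numbers, and p-values measure the spread between mice. The 95% intervals are those of limma. The fits were tested on simulated data.

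Members were named with values in every mouse if they passed a test, or with a fold change if groups did not overlap, along with the 2 highest and lowest of each compartment, pairs for 1 amino acid and up to 4 genes that passed per other list. Lars, Hars2, and the ratio of Lars to Lars2 were chosen after their values were seen. The members and lists were chosen with earlier results of these data known. Transcript sharing came from BLAST+ 2.17.0+ against GENCODE vM21, promoters from RefSeq (GRCm38.p6). Motifs were chosen after the values were seen, and the matches in 1 gene are not reported here.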

Additional observations from a re-analysis of the deposited data

Results flagged for a closer look

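Of 148 sets of values (37 members in 4 groups), 6 held a mouse far from the others of its group by Dixon's test at the 95% level, and chance alone gives about 1 in 20. Aars2 was low in Ctrl 2, at 1.91 FPKM where the other Ctrl mice had 2.8 to 2.99. Nars was high in Ctrl 5, at 32.0 FPKM against 22.9 to 24.5, and Farsb was high in B2D 3, at 15.5 against 9.5 to 11.0. Among the fenofibrate groups, Ears2 was low in Ctrl+FF 2 (2.49 FPKM against 2.66 to 2.69), Qars was low in Ctrl+FF 3 (6.08 against 6.28 to 6.32) and Fars2 was low in B2D+FF 2 (5.48 against 5.85 to 5.93), all within groups of narrow range. Lars2 in Ctrl 5, at 67.6 FPKM, was not among them.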

How the results depend on the processing

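In B2D against Ctrl, the count of members called moved from 0 to 1 with a filter at a mean of 5 FPKM, with upper-quartile rescaling and with voom on recovered reads (Lars2, lower, each time), and to 3 with all 18 libraries in 1 fit (Lars2 and Fars2 lower, Lars higher). With 1 library left out it was 0 to 1 (Lars, without Ctrl 5). In B2D+FF against Ctrl+FF the count moved from 3 to 5 with weights for library quality, which added Mars and Yars2, and to 4 with a filter at a mean of 5 FPKM, which added Mars. It was 2, without Rars, with no filter, upper-quartile rescaling, quantile normalization and all 18 libraries in 1 fit, and 0 to 3 with 1 library left out. For the difference between diet effects it was 0 under all alternatives run. The difference between compartments was 0.23 to 0.3 without fenofibrate under the other settings and 0.18 to 0.28 with 1 mouse left out, and 0.11 to 0.13 and 0.09 to 0.16 with fenofibrate. Gars, Sars, Rars, Mars and Yars2 with fenofibrate, and Lars2 and Fars2 without it, kept their sign under every alternative run. Other members did not all do so, since cytosolic members above 0 without fenofibrate numbered 11 to 17 over the alternatives. Upper-quartile rescaling shifted the median of all genes to -0.0243 and -0.0314, and turned the split of all calls with fenofibrate from 263 lower and 266 higher to 347 and 213. The calls over all genes also depended on the fit: without fenofibrate, 224 lower and 89 higher became 444 and 287 with all 18 libraries in 1 fit and 49 and 18 with no filter. No paired analysis was possible because the labels give the groups no shared replicate numbers. Depth limits the lowest members, such as Pars2 with 15 reads in 1 mouse.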
